A study of Mus musculus with 2 samples.

Results

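Sox4-high, H19-low resting basal keratinocytes (KCs) of the newborn mouse epidermis were picked cell by cell from single-cell RNA-sequencing counts. They are 1231 of the 19488 cells that passed quality filters, 526 of 7607 in KO mouse 1 and 705 of 11881 in KO mouse 2. A cell had to hold 900 to 7700 detected genes and under 10% mitochondrial transcripts. Krt14 and Krt5, the keratins of the basal layer, together made up at least 0.8% of its transcripts, and Krt1 and Krt10, the keratins of the layers above, under 0.8%. It held at most 1 transcript of Lhx2, a hair follicle factor, at most 1 of the division genes Mki67 and Top2a together, 0 of the S phase gene Rrm2 and at most 1 of Ptch1, the hedgehog receptor. Finally it held at least 3 transcripts of Sox4 and at most 1 of H19. These 11 genes chose the members, so their levels are described below and not tested. A transcript is counted once through its unique molecular identifier (UMI), and levels are given as CPM, a gene's UMIs scaled to a common total of UMIs per class and mouse.

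Both libraries came from epidermis peeled off the dermis of male C57BL/6J mice at postnatal day 0, 1 library per mouse, after removal of dead cells. Both mice lacked the M3 muscarinic receptor for acetylcholine through a knockout (KO) of its gene, Chrm3. WT libraries were not analysed here, so no value below is a genotype effect, and 2 mice give the only spread between animals. The sample labels name version 1 of the 10x 3′ chemistry and the study's methods version 3.1. The libraries held 10816 barcodes with 109756784 UMIs and 15867 barcodes with 166441732 UMIs, of which 70.3% and 74.9% were kept, at medians of 10480.0 and 10577 UMIs. The libraries had 127 barcode sequences in common, 34 of them among the cells kept in both. Scrublet called 1.14% of the members of mouse 1 and 1.70% of those of mouse 2 doublets, against 2.16% and 4.21% of the cells kept. In the members, 0 Chrm3 UMIs were counted in mouse 1, which allows up to 0.598 CPM by a limit of 3 counts and 0.736 by the exact 95% Poisson interval, and 2 in mouse 2 (0.322 CPM, exact 95% Poisson interval 0.039 to 1.16). A UMI does not tell which part of the gene it came from, so this checks the knockout only loosely. All intervals cover counting error only.

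Basal KCs sit on the basement membrane, hold to it through hemidesmosomes built on integrins and collagen XVII, and either divide or leave for the layers above. Sox4 belongs to the SoxC group of transcription factors, which act in many embryonic progenitors and are known for roles in hair follicle and epidermal development. H19 is a non-coding RNA transcribed from the maternal chromosome, beside the imprinted growth factor gene Igf2, which is read from the paternal one. At birth the dorsal follicles are still growing down from the same basal layer, and their cells carry Krt14 and Krt5 as well.

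Among the 3629 resting basal cells that met every condition except those on Sox4 and H19, the members made up 37.5% in mouse 1 (526 of 1403, exact 95% interval 35.0 to 40.1) and 31.7% in mouse 2 (705 of 2226, 29.7 to 33.6). The other resting cells formed 3 classes. H19-high, Sox4-low cells (at least 2 H19 UMIs and at most 2 of Sox4) numbered 346 and 528. Sox4-low, H19-low cells numbered 345 and 556, and Sox4-high, H19-high cells 186 and 437. The classes are ranges of counts, not cell types, and the cuts run through populated counts: 123 and 138 members held exactly 3 Sox4 UMIs, and 130 and 198 of the cells just outside held 2. Depth differed too. The median member had 8124 UMIs in mouse 1 and 8241 in mouse 2, against 10423.5 and 10192.5 in the H19-high, Sox4-low class, 7836 and 7777.5 in the Sox4-low, H19-low class and 9613 and 9837 in the Sox4-high, H19-high class.

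**Figure D1:**
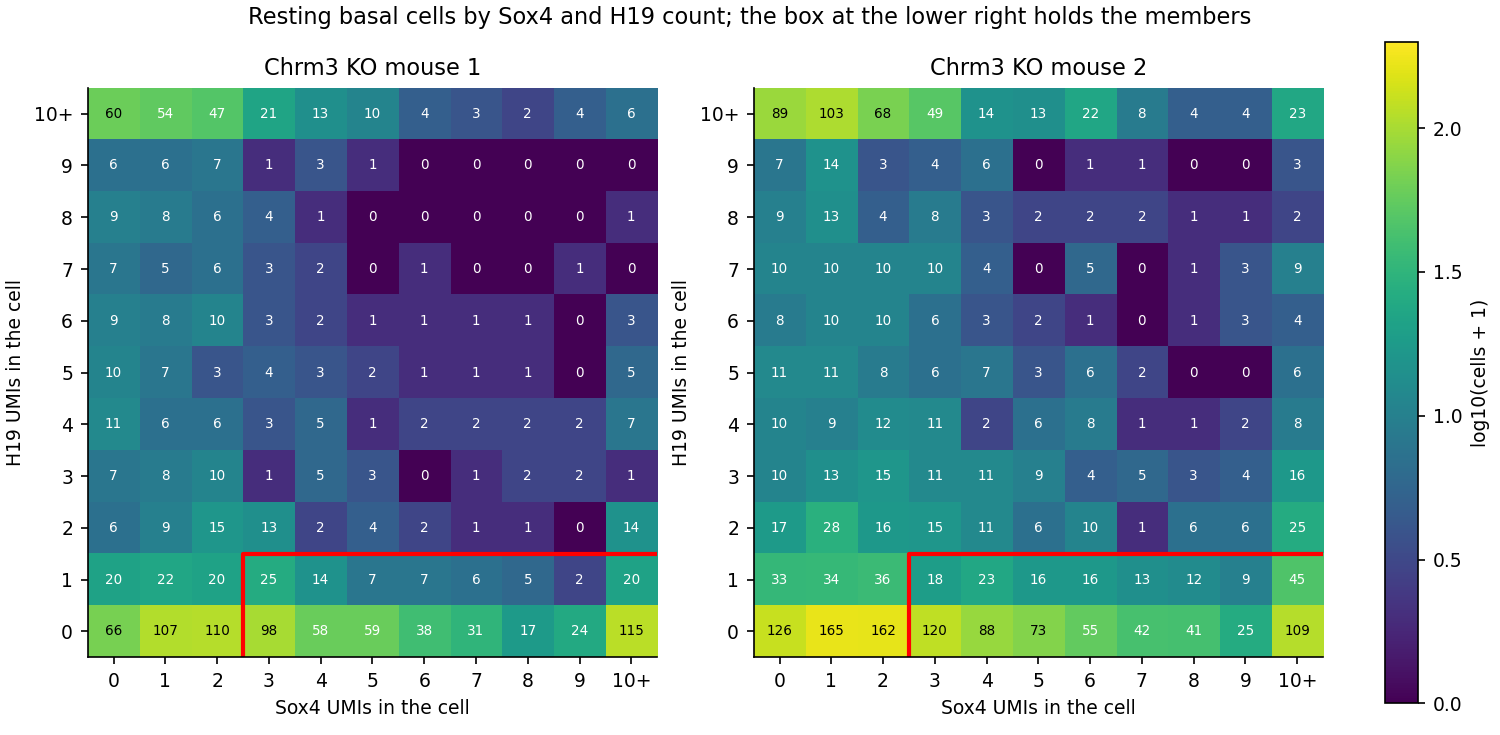
Number of resting basal cells at each pair of Sox4 UMIs (horizontal) and H19 UMIs (vertical) per cell, 10+ standing for 10 or more, in each Chrm3 KO mouse. The red lines enclose the 526 and 705 members at the lower right, and cells occur on both sides of each cut.

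Sox4, at chromosome 13 from 28948919 to 28953713 on the minus strand of GRCm38, was at 838 and 833 CPM in the members of mouse 1 and mouse 2. Its level was 679.6 and 665 CPM in Sox4-high, H19-high cells, 138 and 136 in Sox4-low, H19-low cells and 87.8 and 92.9 in H19-high, Sox4-low cells. The median member held 6 Sox4 UMIs in either mouse, and the highest counts were 75 and 62. H19 (chromosome 7, 142575529 to 142578143, minus strand) was at 17.2 and 24.5 CPM in the members and at 1185 and 1214 in H19-high, Sox4-low cells. These levels restate the selection. Krt14 (chromosome 11, 100203162 to 100207548, minus strand) was at 11290.4 and 11101 CPM in the members and at 18704 and 20313 in H19-high, Sox4-low cells, with the remaining classes between them at 13879.7 and 13774 (Sox4-low, H19-low) and 13660.3 and 15234 (Sox4-high, H19-high). In suprabasal cells Krt14 was at 937 and 1258 CPM, and in cells with melanocyte markers, which should lack it, at 645 and 787. Basal keratins made up a median of 1.45% and 1.47% of a member's UMIs, against 2.46% and 2.79% in H19-high, Sox4-low cells.

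Just inside the Sox4 cut, cells with 3 Sox4 UMIs had Krt14 at 12286 and 11977 CPM and Dcn at 223 and 349. Just outside it, cells with 2 had Krt14 at 13783 and 13095 and Dcn at 161 and 318. At the H19 cut, the 86 and 152 members with 1 H19 UMI had Dcn at 614 and 727 CPM, and the 37 and 80 Sox4-high cells with 2 H19 UMIs at 760.0 and 1188. At the keratin cut, members with 0.8 to 1.0% basal keratin had Krt79 at 10887 and 3333 CPM, and the cells left out at 0.6 to 0.8% at 5075 and 3040.2. The keratin cut thus divides a set of Krt79-rich cells.

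Krt14 and Krt5 were fixed by the rule and say nothing on whether the cells are basal. Among basal genes outside the rule, Trp63, the master factor of stratified epithelia, was at 202 and 171 CPM in the members and 196 and 158 in H19-high, Sox4-low cells. Its edgeR log2 difference, taken after TMM scaling of the sums, had the other sign at -0.074 ± 0.13 (edgeR adjusted p = 0.77). Krt18 had 1 and 2 UMIs in the members and Krt8 none. Of the other cell types looked for, dermal fibroblast markers summed to 11.2 and 18.3 CPM, with Col1a2 the most abundant at 6.18 and 8.21 CPM and Dpt at 0. Langerhans and myeloid markers summed to 3.79 and 4.18 CPM, T cell markers to 0.798 and 1.61, Merkel cell markers to 0.199 and 0.483 and endothelial, nerve and muscle markers to 5.39 and 6.76. Cd207 and Ptprc of the Langerhans list, Cd3e of the T cell list and Krt8, Krt20, Isl1 and Atoh1 of the Merkel list were at 0 in both mice. Melanocyte markers summed to 58.0 and 132 CPM, with Dct the most abundant at 22.7 and 52.6 CPM, and came from few cells: 10 and 12 members held 3 or more such UMIs. Their part in the results below was tested only by leaving those cells out together with cells that held Krt79 or Lce1 UMIs. Sebaceous markers summed to 176 and 156 CPM, with Mgst1 the most abundant at 112 and 86.4 CPM and 0 of 7 genes at 0.

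The suprabasal list, which holds Krt1 and Krt10 of the rule, summed to 11838 and 12534 CPM in the members, with Lgals7 the most abundant. In H19-high, Sox4-low cells it summed to 11101 and 13649 CPM. Against the lists of other cell types given above, hair follicle markers had a higher sum. The follicle list summed to 9959.7 and 4088 CPM in the members, with 19 of 20 genes detected and Foxd1 at 0, against 3739.9 and 2997 CPM in Sox4-low, H19-low cells, 1064 and 1091 in Sox4-high, H19-high cells and 366 and 534 in H19-high, Sox4-low cells. Most of it was Krt79, a keratin of the follicle's upper canal, and Krt17, a keratin of follicle and appendage epithelium. At least 3 Krt79 UMIs were found in 103 members of mouse 1 (19.6%) and 76 of mouse 2 (10.8%), against 7.54% and 7.73% of Sox4-low, H19-low cells and 0.578% and 2.46% of H19-high, Sox4-low cells. Melanocyte-marked cells, which should lack the gene, reached 3.32% and 3.00% at median depths of 8894.5 and 9652 UMIs. For Krt17 the shares with 3 or more UMIs were 66.2% and 64.7% of the members, 59.1% and 63.7% of Sox4-low, H19-low cells, 14.7% and 22.7% of H19-high, Sox4-low cells and 13.9% and 19.3% of melanocyte-marked cells. Since Krt17 was found in most members and Krt79 in a minority, a label of plain interfollicular basal cells goes against the data, and the cells are called here by their rule.

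In the comparison of the members with the H19-high, Sox4-low class, 11 of 16 hair follicle genes were higher in the members, as were 5 of 8 Sox genes and 5 of 19 Wnt receptors, effectors and targets. Igf2 and Krt15 were lower, with 9 of 15 hemidesmosome and basement membrane genes and 5 of 9 Wnt ligands. UMIs were summed per mouse and class and tested with edgeR's quasi-likelihood test over 10759 genes outside the rule, with Benjamini-Hochberg adjustment over that whole set. At an adjusted p under 0.05, 1322 genes (12.3%) were called, 704 higher in the members (6.54%) and 618 lower (5.74%). With the mouse as a block the calls numbered 2592 (24.1%), 1250 higher (11.6%) and 1342 lower (12.5%), and without the cells that held 3 or more Krt79 UMIs 901 (8.61%), 464 higher (4.43%) and 437 lower (4.18%). Without cells of 3 or more Krt17 UMIs 586 were called (6.47%), 275 higher (3.04%) and 311 lower (3.43%), and with DESeq2 715 (6.65%), 432 higher (4.02%) and 283 lower (2.63%). The log2 difference of the median gene tested was -0.00096. At an unadjusted p under 0.05 edgeR had 2849 of the 10759 genes.

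Of the 16 hair follicle genes tested, 11 were higher in the members and 0 lower, with a median log2 difference of 2.41. Krt79 (chromosome 15, 101929332 to 101940324, minus strand) was at 5159 and 1582 CPM in the members and at 24.9 and 48.6 in H19-high, Sox4-low cells (log2 difference 6.32 ± 0.62, edgeR adjusted p = 0.00037). Krt17 (chromosome 11, 100256217 to 100261029, minus strand) was at 4167 and 2053 CPM against 157 and 334 (log2 difference 3.49 ± 0.39, edgeR adjusted p = 0.00064). Both members' values lay above both values of the other class for each keratin. Mouse 1 was the higher animal in the members and mouse 2 in the other class. Factors of follicle stem and progenitor cells rose with them. Runx1 stood at 118 and 56.3 CPM against 5.04 and 5.17 (log2 difference 3.92 ± 0.40, edgeR adjusted p = 0.00043). Sox9, which marks the bulge and outer root sheath, stood at 81.0 and 50.05 CPM against 5.04 and 5.91 (log2 difference 3.39 ± 0.31, edgeR adjusted p = 0.00031). The forkhead factor Foxc1 (3.28), the bulge factor Nfatc1 (2.71), the signalling peptide gene Pthlh (5.09), Pdzrn3, the upper follicle stem cell marker Lrig1 (1.41), Tbx1 (2.12) and Cux1 (0.58) were also higher. Of these, Pdzrn3 passed the filter on low counts through the members alone, with at most 6 UMIs in any other class sum, so its call adds no support. With Krt79-positive cells left out of every class, 8 of the 15 follicle genes that could be tested were higher and the median log2 difference was 1.26. With cells of 3 or more Krt17 UMIs left out, 6 of 11 were higher and the median was 1.17. The genes tested in each setting include the keratin gene whose UMIs chose the cells left out. That gene's value there is set in part by the exclusion. Both exclusions were chosen after the data had been seen.

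**Figure D2:**
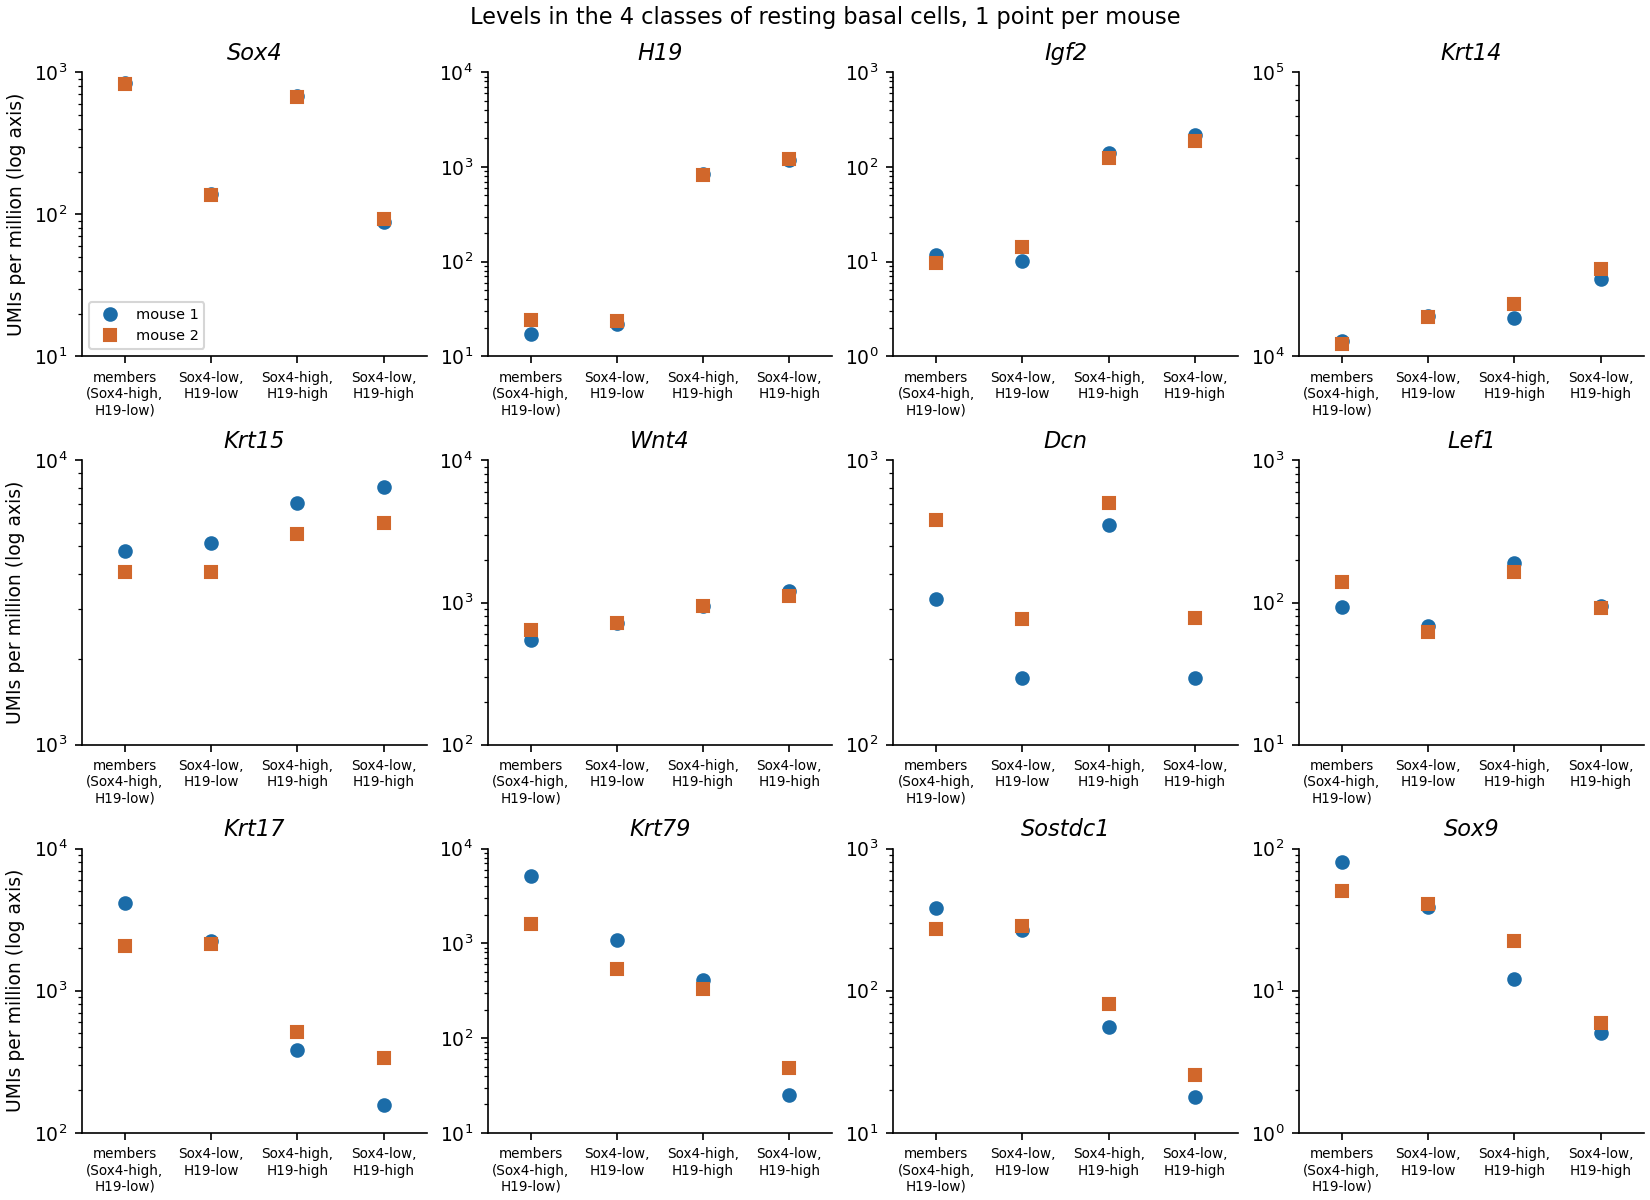
Levels in CPM (log axis) of 12 genes in the 4 classes of resting basal cells, 1 point per Chrm3 KO mouse. Sox4, H19 and Krt14 belong to the rule, Igf2 is low in both H19-low classes, and the members of mouse 1 have the highest Krt79 and Krt17 of the 4 classes.

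Among the called genes at 50 CPM or more in the higher class, the 15 with the largest rise held 5 follicle genes, Krt79, Pthlh, Runx1, Krt17 and Sox9, and the sebaceous gene Mgst1. Of the others, Nebl rose by 5.86 on the log2 scale, the retinol dehydrogenase family gene Sdr16c6 by 4.76, Rarres1 by 4.16, the stress-induced gene Nupr1 by 3.97, Pdlim4 by 3.82, sciellin (Scel), a cornified envelope precursor, by 3.78, Acot1 by 3.67 and the gap junction gene Gjb2 by 3.39. Rarres1 rested on Krt79-positive cells, for its log2 difference was -0.057 without them. Nupr1 and Gjb2 were also concentrated in few members. In a Krt79-rich cluster of 73 members (cluster 6 below) they were at 636 and 536 CPM, against 10.3 and 11.5 in the other members. Sostdc1, a secreted inhibitor of Bmp and Wnt signals at chromosome 12 from 36314139 to 36318452, was at 379 and 271 CPM in the members and 17.8 and 25.3 in H19-high, Sox4-low cells (log2 difference 3.73 ± 0.23, edgeR adjusted p = 6.6e-05). Entry to this list of 15 required the same direction in both mice, so that agreement is not a further result.

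Beside Sox4 itself, 8 Sox genes could be tested, of which 5 were higher and 2 lower in the members. Sox11, a SoxC factor like Sox4, was rare at 9.57 and 6.44 CPM in the members but rarer in H19-high, Sox4-low cells at 0.265 and 0.185 (88 UMIs against 2, a ratio of 36.0 with an exact 95% counting interval of 9.67 to 302). It is 1 of the 5, but passed the filter on low counts through the members alone, with at most 8 UMIs in any other class sum. Its call therefore adds no support. Sox5 (log2 difference 2.15), Sox7 (3.23), Sox9 and Sox21 (0.85) were higher, and Sox6 (-0.86) and Sox15 (-0.81) lower. Of 5 tested genes that SoxC factors are known to drive in other tissues, mainly neurons, 3 were higher and 0 lower. Stmn1, which loosens microtubules, stood at 355 and 366 CPM against 156 and 168 (log2 difference 1.00 ± 0.10, edgeR adjusted p = 0.00047). Marcksl1 (0.98) and the tubulin gene Tubb2b (2.11) were the others, and Tubb2b turned to -0.098 without cells of 3 or more Krt17 UMIs. In that setting 2 of 5 genes of the list and 2 of 5 tested Sox genes were called. The median log2 difference was 0.035 over those 5 Sox genes and 1.5 over the 8 tested in all cells. These medians cover different sets of genes and do not show a change within the same genes. Tead2, at 6.78 and 9.33 against 3.71 and 4.62 CPM, and Ezh2 did not pass the test.

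Of 9 Wnt ligands tested, 5 were lower in the members and 0 higher, the median log2 difference being -0.47. Wnt4 (chromosome 4, 137277489 to 137299726, plus strand) stood at 545 and 636 CPM in the members and 1212 and 1102 in H19-high, Sox4-low cells (log2 difference -1.12 ± 0.095, edgeR adjusted p = 0.00019), with no overlap between the classes. Wnt3a (-1.17), Wnt6 (-0.41), Wnt7b (-0.61) and Wnt10a (-0.63) were lower too. Without Krt79-positive cells 3 of the 9 ligand genes were lower, at a median of -0.17, and without cells of 3 or more Krt17 UMIs 2, at a median of -0.028. Of 19 receptors, effectors and targets, 5 were higher and 0 lower. The R-spondin receptor gene Lgr6, a marker of stem cells of the upper follicle, stood at 43.3 and 60.8 CPM against 4.78 and 7.20 (log2 difference 2.93 ± 0.34, edgeR adjusted p = 0.00073), and Lgr4 (1.13), Fzd7 (1.71), Tcf7 (1.22) and the β-catenin gene Ctnnb1 (0.49) made up the rest. In the blocked fit 9 of the 19 were higher. Axin2, a general Wnt target, was at 42.7 and 29.1 CPM against 30.5 and 22.3 and did not pass the test.

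In the Bmp and Tgf-β pathway, 6 of 20 genes were higher and 4 lower. The higher genes held inhibitors and ligands. Fst, the gene of the activin and Bmp antagonist follistatin, stood at 450.4 and 397 CPM against 135 and 155 (log2 difference 1.39 ± 0.12, edgeR adjusted p = 0.00019), with Tgfb2 (3.80), Tgfb3 (3.14), Bmp7 (0.67), the latent Tgf-β binding protein gene Ltbp1 and the target Id1 (1.30). The receptor genes Bmpr1b (-1.001) and Tgfbr2 (-0.79) were lower. Among the hedgehog genes the co-receptors Cdon (-0.91) and Gas1 (-0.52) were lower, and 6 of 9 did not pass. In the Egf family the ligand gene Tgfa was higher (2.94) and the receptor gene Egfr lower (-0.66), out of 5 tested. Tgfa turned to -0.21 without Krt79-positive cells. One Notch gene of 9 was called, the ligand gene Jag2, which was lower (-0.56), and with the mouse as a block 4 were lower and 1 higher.

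The imprinted growth factor gene Igf2 had the largest fall in the members among called genes at 50 CPM or more in the higher class that changed alike in both mice. At chromosome 7 from 142650766 to 142666816 on the minus strand, it stood at 11.8 and 9.66 CPM in the members and at 217 and 189.9 in H19-high, Sox4-low cells (log2 difference -4.40 ± 0.15, edgeR adjusted p = 1.3e-06). Its neighbour H19 was part of the rule, so the fall of Igf2 is not independent of the selection. Of 12 imprinted growth genes tested, Igf2 included, 4 were lower and 0 higher. They were Igf2, Ascl2 (-2.45), a progenitor factor, the placental growth restrictor Phlda2 (-1.43) and the growth factor receptor adaptor Grb10 (-1.28), the last 3 at 15.4 CPM or less in every class sum. Ascl2 (142966829 to 142969264) and Phlda2 (143501545 to 143503150) also lie on the minus strand of chromosome 7.

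Of 15 genes that tie basal cells to the basement membrane, 9 were lower in the members and 0 higher (5 and 0 by DESeq2), with a median log2 difference of -0.62. The integrin genes Itga6 (193 and 181 CPM against 325 and 247, log2 difference -0.76 ± 0.14, edgeR adjusted p = 0.0067) and Itgb4 (119 and 128 against 195 and 164, log2 difference -0.69) form the hemidesmosome's core. Collagen XVII, encoded by Col17a1, was at 370.4 and 301 CPM against 574 and 416 (log2 difference -0.71 ± 0.19, edgeR adjusted p = 0.038), with both values of the members under both of the other class. Col7a1, the anchoring fibril collagen, differed by -0.95, and Fras1 and Frem2 of the Fraser complex by -1.43 and -0.67. Itga3 (-0.62), Itga2 (-1.73) and Cd151 completed the 9, while the laminin genes Lama3 and Lamb3 did not pass. Among basal identity genes Krt15, the keratin of quiescent basal cells, was lower at 4786 and 4055 CPM against 8083 and 6019 (log2 difference -0.83 ± 0.16, edgeR adjusted p = 0.009), Itgb1 was lower (-0.53) and Tfap2a higher (0.52), out of 8 tested. Without cells of 3 or more Krt17 UMIs 2 of the 15 adhesion genes were called lower, and without Krt79-positive cells 5, while the median log2 difference was -0.36 in both settings. The block gave 3 of the 8 basal identity genes as higher and 2 as lower. Without Krt79-positive cells edgeR called 1 of these 8 higher and 1 lower. Without cells of 3 or more Krt17 UMIs it called 1 higher and 0 lower (5 at an unadjusted p under 0.05), so neither Krt15 nor Itgb1 was called there.

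Matrix genes moved both ways, 8 of 20 higher and 7 lower. Sparc, a calcium-binding matrix protein gene, fell by 1.66 on the log2 scale, from 624 and 654 CPM in H19-high, Sox4-low cells to 202 and 248 in the members (edgeR adjusted p = 6.8e-05). Tgfbi (-1.71), Postn (-1.28) and Thbs1 (-1.05) were lower with it. The type IV collagen genes of the basement membrane went the other way, Col4a1 at 108 and 93.2 CPM against 35.6 and 30.1 (log2 difference 1.46 ± 0.13, edgeR adjusted p = 0.00024) and Col4a2 by 1.25. Col4a1 turned to -0.0087 in cells with under 5% mitochondrial UMIs. Fibronectin (Fn1, 21.9 and 33.3 CPM against 2.12 and 3.32, log2 difference 3.14), Fbln2 (1.34), Vcan (1.65) and Bgn (1.28) were higher. The other genes with the largest falls were Serpinb10 (-2.69), Myof (-2.05), the nuclear receptor gene Rora (-1.90), BC100530 (-1.62) and Stfa1 (-1.51) of the stefin A family, Fjx1 (-1.57), the water and glycerol channel gene Aqp3 (-1.55), Rnase4 (-1.54), Igfbp2 (-1.52), Gcat (-1.49) and Sema3c (-1.43). BC100530 and Stfa1 share sequence with near copies in one cluster, so their reads may have been split or dropped.

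**Figure D3:**
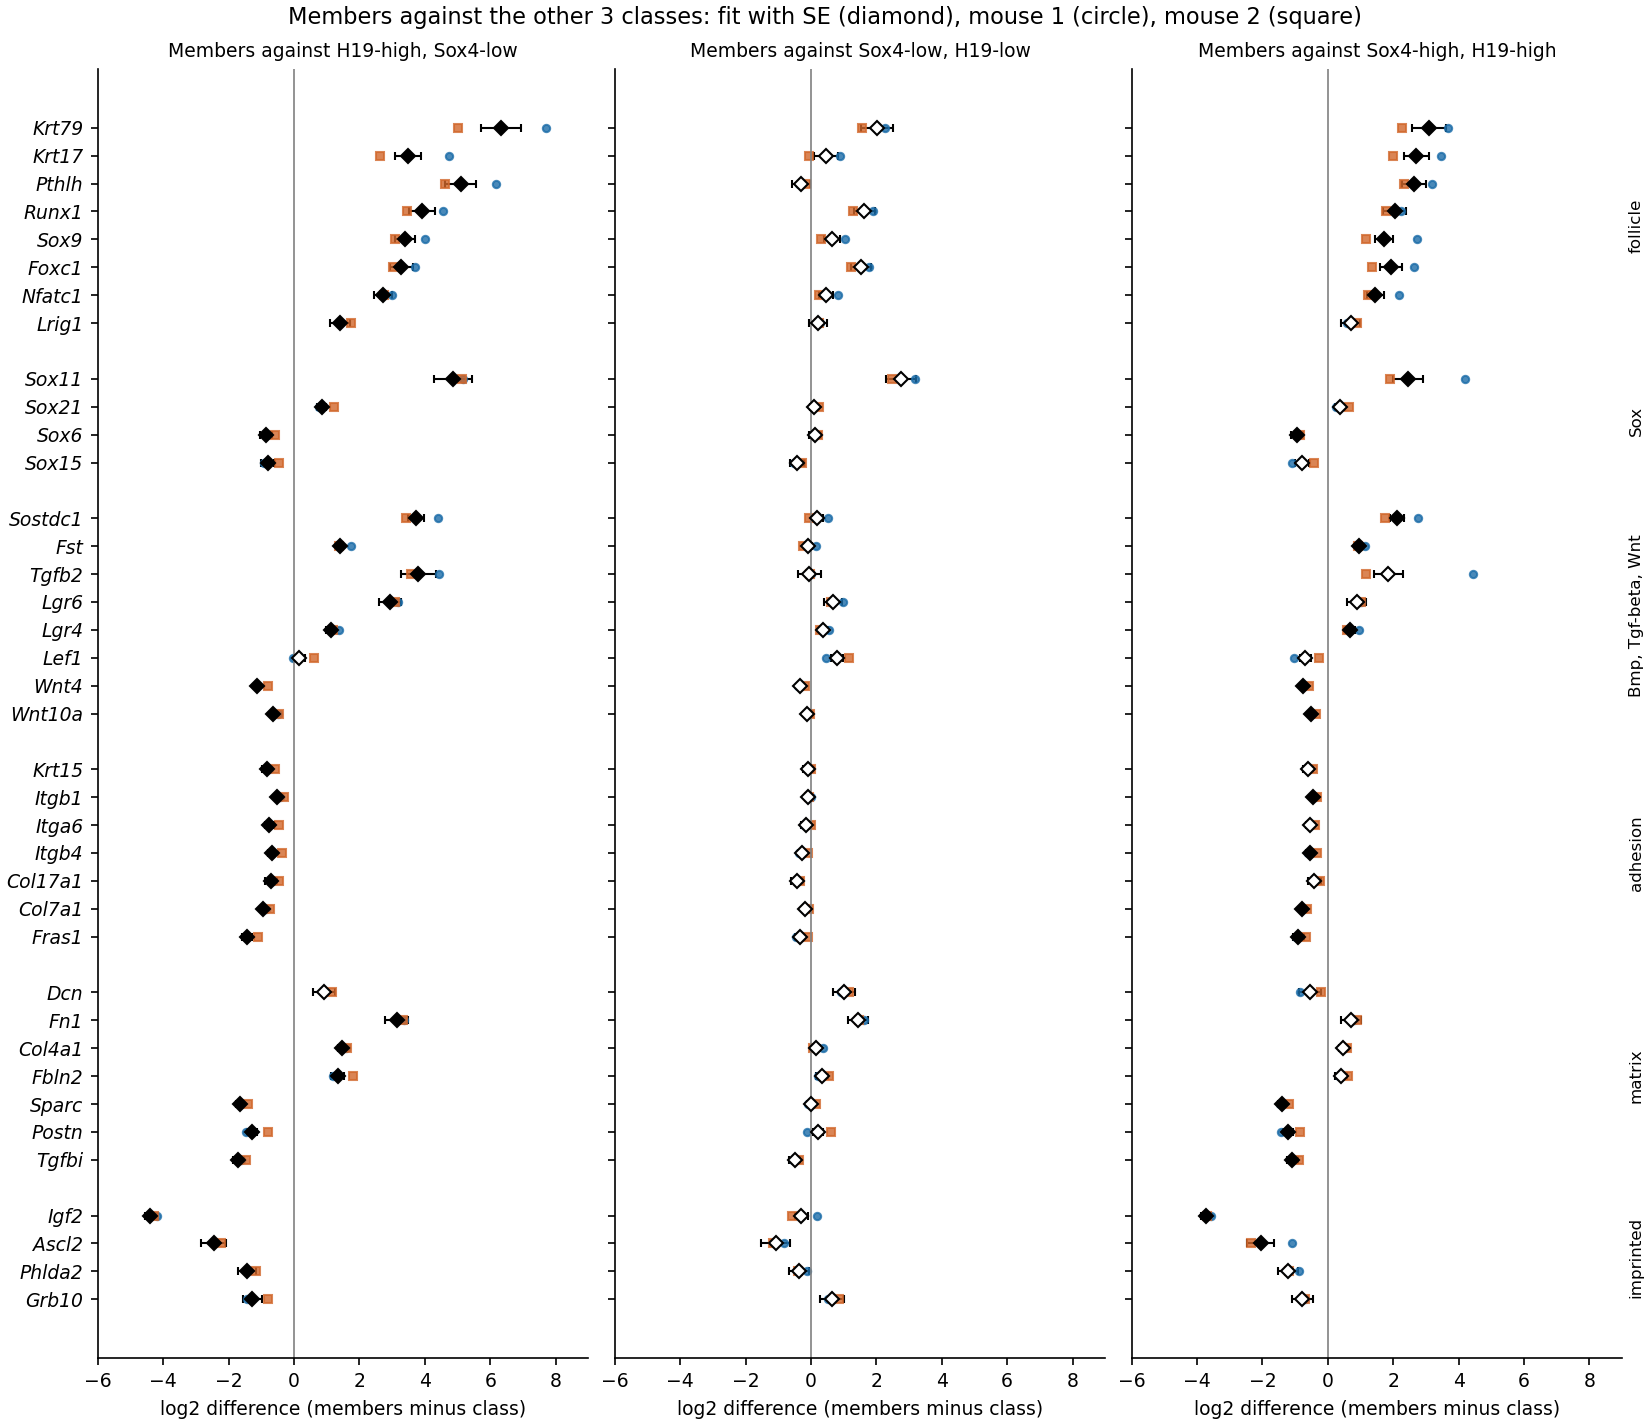
Log2 difference between the members and each of the other 3 classes of resting basal cells, for genes grouped by role. Diamonds show the edgeR estimate with its SE (filled where the adjusted p is under 0.05), circles and squares the ratio of CPM within mouse 1 and mouse 2, and every gene drawn filled in the left panel keeps its sign in both mice.

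The remaining lists gave fewer calls or calls in both directions. Desmosome and junction genes gave 3 higher and 4 lower of 18, with the gap junction genes Gjb2 and Gjb6 (4.19) and the factor Barx2 (1.65) higher and Gja1 (-0.79), the main gap junction gene of the basal layer, lower. Suprabasal genes gave 2 higher (Calml3 and Dsc1) and 1 lower (Lgals7) of 16, at a median log2 difference of 0.41. S phase genes gave 0 higher and 2 lower of 20, Mcm6 and Dut. In the G2/M list 0 of 13 passed with edgeR and with DESeq2 (4 at an unadjusted p under 0.05), and in the immediate early and stress list 0 of 16 with either tool (3 unadjusted). With the mouse as a block 10 of those 16 were lower and 1 higher. The block also raised the calls to 4 higher and 8 lower for the junction genes, 4 and 3 for the suprabasal genes, 1 and 5 for the S phase genes and 1 and 1 for the G2/M genes. Fos was at 876 and 525 CPM in the members and 1314 and 812 in H19-high, Sox4-low cells, and in either class mouse 1 lay above mouse 2. Ribosomal protein genes gave 15 lower and 0 higher of 82, with a median log2 difference of -0.21, and 76 lower and 0 higher with the mouse as a block. Many of them have pseudogene copies that can take a share of their reads. DESeq2 called 3 of them lower. Sebaceous genes gave 3 higher of 7, among them Mgst1 (3.28) and Cidea (3.63), whose summed level was 176 and 156 CPM in the members and 39.3 and 44.0 in the other class. Langerhans genes gave 3 lower of 5, and that list summed to 215 CPM in the H19-high, Sox4-low cells of mouse 2 but 10.9 in those of mouse 1. Melanocyte genes gave 0 of 5 (4 unadjusted, 0 by DESeq2), dermal genes 1 higher of 3, which was Col1a2, and endothelial, nerve and muscle genes 0 of 2. Muscarinic, T cell and Merkel genes were too low to be tested. With the block 3 of the 5 melanocyte genes, 4 of the 7 sebaceous genes and 1 of the 2 endothelial, nerve and muscle genes were higher, and 1 sebaceous gene and all 5 Langerhans genes lower.

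Leaving out Krt79-positive cells changed several of these counts. Suprabasal genes then gave 0 higher and 3 lower of 14 (median -0.044), sebaceous genes 1 higher and 1 lower of 4 (median 0.83, against 3.06 over the 7 tested in all cells), junction genes 1 higher and 6 lower of 18, S phase genes 1 higher and 0 lower of 20, and ribosomal protein genes 0 higher and 6 lower. Among the signalling lists, Bmp and Tgf-β genes gave 7 higher and 1 lower of 20, Notch genes 1 higher and 2 lower of 9, and Egf family genes 0 of 5 (1 at an unadjusted p under 0.05 by edgeR). Matrix genes gave 11 higher and 6 lower of 20, and Sox genes 3 higher and 0 lower of 7. Leaving out cells of 3 or more Krt17 UMIs instead gave 0 higher and 2 lower of 12 suprabasal genes (median -0.25), 1 higher and 0 lower of 6 sebaceous genes (median 2.10), 0 higher and 5 lower of 17 junction genes, 1 higher and 3 lower of 17 S phase genes and 0 higher and 4 lower ribosomal protein genes. In that setting Bmp and Tgf-β genes gave 3 higher and 0 lower of 17, Notch genes 1 higher and 0 lower of 8, imprinted genes 2 lower of 11, and Langerhans genes 0 of 4 and Egf family genes 0 of 4 (3 and 0 unadjusted).

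Against Sox4-low, H19-low cells, the class that differs from the members in the Sox4 condition alone, far fewer genes differed. The test called 19 of 10759 genes (0.177%), 11 higher (0.102%) and 8 lower (0.0744%) in the members, and 395 (3.67%) with the mouse as a block, 213 higher (1.98%) and 182 lower (1.69%). The balance of directions depended on the cells. Without cells of 3 or more Krt17 UMIs edgeR called 47 of 9060 genes, 2 higher and 45 lower. With Lhx2 and Ptch1 at 0 UMIs it called 9 of 9860, 0 higher and 9 lower. Alcam, an adhesion molecule of the immunoglobulin family, was at 449 and 201 CPM in the members and 77.7 and 69.8 in Sox4-low, H19-low cells (log2 difference 2.09 ± 0.32, edgeR adjusted p = 0.047). The α-tubulin gene Tuba1a was at 128 and 81.7 CPM against 39.0 and 41.7 (log2 difference 1.32 ± 0.20, edgeR adjusted p = 0.047). For both genes the members of either mouse lay above the other class, mouse 1 by the wider margin. Pdlim4 (1.64) and Grasp (0.95) were also higher, each with an edgeR adjusted p of 0.047. The named genes that were lower belong to lipid metabolism. Scd1, a desaturase of sebaceous cells, was at 21.5 and 22.2 CPM against 212 and 81.8 (log2 difference -2.77 ± 0.37, edgeR adjusted p = 0.038), and the monoglyceride lipase gene Mgll at 67.2 and 85.4 against 139.9 and 139 (log2 difference -0.91 ± 0.13, edgeR adjusted p = 0.04). Elovl3, a fatty acid elongase, was at 0.399 and 1.13 against 46.9 and 16.7. It passed the filter on low counts through Sox4-low, H19-low cells alone, with at most 7 UMIs in any other class sum, so its call adds no support. The sebaceous list summed to 593 and 245 CPM in Sox4-low, H19-low cells and to 176 and 156 in the members. Without Krt79-positive cells 0 genes were called by edgeR (612 at an unadjusted p under 0.05; DESeq2 on all cells called 55, 0.511% of the genes, 37 higher (0.344%) and 18 lower (0.167%)), and Scd1 and Mgll changed sign, to 0.45 and 0.11.

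Against this class 0 genes of the 26 lists passed with edgeR over all cells outside the sebaceous one, where 2 of 7 were lower (Scd1 and Elovl3). Without cells of 3 or more Krt17 UMIs edgeR called 1 gene of the Wnt receptors, effectors and targets higher. It then called 1 suprabasal gene, 1 follicle gene and 3 of 6 sebaceous genes lower. DESeq2 called 2 follicle genes, 2 junction genes, 1 SoxC target and 1 Wnt receptor or effector higher outside that list. The lists with 4 or more genes at an unadjusted p under 0.05 by edgeR were the hair follicle list (7 of 16), the Wnt receptors, effectors and targets (6 of 19), the melanocyte list (5 of 5), the SoxC targets (4 of 5), the sebaceous list (4 of 7), the Wnt ligands (4 of 9), the suprabasal list (4 of 16) and the matrix list (4 of 20). Over all genes tested, 886 of 10759 had such a p. The melanocyte list, with a median log2 difference of 2.18, summed to 58.0 and 132 CPM in the members against 9.94 and 32.1 in Sox4-low, H19-low cells, and its part in the differences here was tested only together with Krt79 and Lce1 UMIs, where 0 genes were called by edgeR (590 at an unadjusted p under 0.05). In the blocked fit, 4 SoxC targets, 3 follicle genes, 3 Wnt receptors, effectors and targets, 2 junction genes and 1 melanocyte gene were higher with 0 lower. The 1 Sox gene called there was Sox11, whose call adds no support for the reason given below. Lower with 0 higher were 3 sebaceous genes, 2 hemidesmosome genes, 3 ribosomal protein genes, and 1 gene each of the Wnt ligands, the S phase list and the immediate early list. The suprabasal list had 3 higher and 1 lower, the matrix list 2 each way, and the Bmp and hedgehog lists 1 each way. Stmn1 was at 355 and 366 CPM in the members and 227 and 268 in Sox4-low, H19-low cells (log2 difference 0.49 ± 0.10, edgeR adjusted p = 0.12), and Tubb2b at 26.9 and 17.1 against 7.45 and 5.27 (log2 difference 1.76 ± 0.31, edgeR adjusted p = 0.067). Sox11 had 1.06 and 1.14 CPM in that class (3 and 5 UMIs), and its test is not used, since it passed the filter on low counts through the members alone. Krt79, at 1072 and 532 CPM there, differed by 2.02 ± 0.50 (edgeR adjusted p = 0.21, with the block 0.00049). Krt17 at 2240.0 and 2116 and Sostdc1 at 267 and 284 CPM overlapped the members' values. Igf2 was at 10.3 and 14.4 CPM, on both sides of the members' values, and Wnt4 at 713 and 715 (edgeR adjusted p = 0.3). With the block the edgeR adjusted p of Stmn1, Tubb2b and Wnt4 became 0.0002, 0.00041 and 0.0092. A difference that missed the threshold in this comparison does not show that the classes are equal.

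Against Sox4-high, H19-high cells, which share the Sox4 condition, 288 genes were called (2.68%), 178 higher (1.65%) and 110 lower (1.02%), and 1207 (11.2%) with the block, 595 higher (5.53%) and 612 lower (5.69%). The 3 comparisons use the same member sums, so their calls are not independent. Follicle genes were again higher, 7 of 16 with 0 lower: Krt79 at 408 and 330.1 CPM in that class (log2 difference 3.102 ± 0.53, edgeR adjusted p = 0.019), Krt17 at 380.1 and 510.3 (log2 difference 2.70 ± 0.38, edgeR adjusted p = 0.0086), Pthlh (2.64), Runx1 (2.04), Foxc1 (1.93), Sox9 (1.72) and Nfatc1 (1.45). Sostdc1 was at 55.9 and 80.6 CPM there (log2 difference 2.12 ± 0.21, edgeR adjusted p = 0.0023) and Fst at 203 and 211 (log2 difference 0.94). Rarres1 (4.02), the serine protease gene Klk7 (3.01), Nebl (2.75) and Sdr16c6 (2.63) completed the leading risers with the keratins. Without Krt79-positive cells Sdr16c6 was at -0.072, Rarres1 at 0.17 and Klk7 at 0.30, none of them called, and Nebl at 1.47 (edgeR adjusted p = 0.12). Igf2 led the falls at 140.2 and 125 CPM (log2 difference -3.72 ± 0.16, edgeR adjusted p = 7.6e-06). Igf2 lies beside H19, whose count separates these classes, so its fall is not independent of the selection. Among genes at 50 CPM or more, the next largest falls were those of Ifitm3 (-1.44), Fjx1 (-1.42), Sparc (-1.40), the glutamate transporter gene Slc1a3 (-1.36) and Rora (-1.35). Wnt ligands gave 3 lower of 9 (Wnt3a, Wnt4 and Wnt10a), hemidesmosome genes 3 lower of 15 (Itgb4, Col7a1 and Fras1), matrix genes 4 lower of 20 and imprinted genes 2 lower of 12, with 0 higher in each. Under the block these became 7, 8, 8 and 3 lower, with 6 matrix genes higher and 0 in the others, and 11 follicle genes were higher. For other lists the block changed the edgeR calls, higher and lower in that order, from 0 and 0 to 7 and 1 for suprabasal genes, from 0 and 0 to 1 and 9 for immediate early genes, from 0 and 1 to 1 and 8 for S phase genes and from 0 and 0 to 0 and 65 for ribosomal protein genes. It moved Wnt receptors, effectors and targets from 1 and 0 to 4 and 1, junction genes from 3 and 1 to 5 and 2, Bmp and Tgf-β genes from 1 and 2 to 4 and 2, Sox genes from 2 and 1 to 4 and 2, basal identity genes from 0 and 1 to 1 and 2, and SoxC targets from 1 and 0 to 2 and 0. Lists without a call by the unblocked edgeR fit that gained some were the Egf family (2 and 1), sebaceous (2 and 0), Notch (0 and 1) and Langerhans genes (0 and 4). DESeq2 gave 3 and 0 for suprabasal genes, 0 and 1 for Wnt receptors, effectors and targets and 0 and 1 for Langerhans genes. Wnt4 was at 939 and 940.2 CPM, between the members and the H19-high, Sox4-low class (log2 difference -0.76 ± 0.095). Without Krt79-positive cells 112 genes were called (1.07%), 70 higher (0.669%) and 42 lower (0.401%), and without cells of 3 or more Krt17 UMIs 26 (0.287%), 5 higher (0.0552%) and 21 lower (0.232%). Follicle genes then gave 4 higher of 15 (median log2 difference 0.79, against 1.59 over the 16 tested in all cells) and 0 of 11 (0.56, 4 at an unadjusted p under 0.05). These genes again include the keratin gene whose UMIs chose the cells left out. Hemidesmosome genes gave 0 of 15 in both settings (5 and 3 unadjusted). Wnt ligands gave 1 and 0 lower of 9 by edgeR (3 unadjusted in both), and imprinted genes 2 lower of 12 and 1 of 11. Matrix genes gave 2 higher and 2 lower of 20 without Krt79-positive cells, and 0 and 2 without cells of 3 or more Krt17 UMIs. Over all genes, 1195 of 10465 and 872 of 9060 had an unadjusted p under 0.05.

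Dcn encodes decorin, a small proteoglycan of the extracellular matrix, and is the third marker given for these cells. At chromosome 10 from 97479609 to 97518143 on the plus strand, it was at 326 and 619 CPM in the members of mouse 1 and mouse 2, so mouse 2 was the higher animal. H19-high, Sox4-low cells had 171 and 279 CPM and Sox4-low, H19-low cells 171 and 278, both under the members of the same mouse. Sox4-high, H19-high cells had 590.5 and 711 CPM, above the members of the same mouse. None of these differences passed without a block: 0.91 ± 0.33 against H19-high, Sox4-low cells (edgeR adjusted p = 0.11), 1.02 ± 0.33 against Sox4-low, H19-low cells (0.37) and -0.55 ± 0.33 against Sox4-high, H19-high cells (0.46). With the mouse as a block, which removes the difference between animals, the edgeR adjusted p was 8.2e-06, 3.6e-05 and 0.00086. Without cells of 3 or more Krt17 UMIs the first difference was 1.57 (edgeR adjusted p = 0.0044) and the last 0.053. A Dcn UMI was seen in 48.5% and 67.1% of the members, in 60.7% and 65.0% of H19-high, Sox4-low cells, in 41.2% and 43.7% of Sox4-low, H19-low cells, in 83.3% and 83.1% of Sox4-high, H19-high cells and in 13.9% and 22.1% of melanocyte-marked cells. With each cell thinned to 5000 UMIs, leaving out 13 and 37 members, the members' shares were 41.7% and 61.1% and those of H19-high, Sox4-low cells 43.4% and 50.3% (3 and 25 cells left out). Dermal fibroblast markers summed to 11.2 and 18.3 CPM in the members, as given above, with Col1a2 at 31 and 51 UMIs, Ebf1 at 0 and 16, Col3a1 at 0 and 6, Col1a1 and Pdgfra at 1 and 0 and Dpt at 0, and their part in the Dcn level was not tested.

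Lef1, the nuclear partner of β-catenin, was, like Dcn, higher in the members than in Sox4-low, H19-low cells and lower than in Sox4-high, H19-high cells of the same mouse, but in mouse 1 not above H19-high, Sox4-low cells. It was at 93.0 and 138 CPM in the members, 94.7 and 91.4 in H19-high, Sox4-low cells, 67.8 and 61.6 in Sox4-low, H19-low cells and 189.8 and 165 in Sox4-high, H19-high cells. The differences from the last 2 classes were 0.80 ± 0.18 and -0.69 ± 0.17 (edgeR adjusted p = 0.14 and 0.063), and with the block these p became 0.0041 and 0.0027. Without cells of 3 or more Krt17 UMIs the difference from H19-high, Sox4-low cells, 0.17 over all cells, was 0.97 (edgeR adjusted p = 0.00098).

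Levels were also followed along the Sox4 count. Resting basal cells were thinned to 5000 UMIs each, and those with at most 1 H19 UMI left were put in 6 bins of the Sox4 UMIs left. Since the H19 limit was applied after thinning, these bins also hold cells that had more than 1 H19 UMI before it. From the bin with 0 Sox4 UMIs to that with 8 or more, Krt14 went from 14804 and 15095 CPM to 9819 and 10391, and Col17a1 from 476 and 391 to 269 and 245. Over the same bins Dcn went from 224 and 251 CPM to 711 and 1496, and Lef1 from 66.3 and 62.6 to 194 and 262. First and last bins differed the same way in both mice for these 4 genes, although Dcn dipped in mouse 1 at 1 Sox4 UMI (176 CPM). The rule cuts counts before thinning. In those counts, for cells with at most 1 H19 UMI and from 2 Sox4 UMIs to 3 to 4, Dcn went from 161 and 318 CPM to 293 and 346 and Krt14 from 13783 and 13095 to 11901 and 11983, a wider gap in mouse 1 than its gaps from 0 to 2 UMIs, where Dcn was at 198, 162 and 161 CPM. The follicle keratins did not follow one course: Krt79 was highest in the bin of 5 to 7 Sox4 UMIs (4750.4 and 1413 CPM), with 1496 and 608 at 0 and 3325 and 595 at 8 or more, and Krt17 went from 2434 and 1866 to 2392 and 915. Before thinning both were highest in mouse 1 at 8 or more, with Krt79 at 9929.9 and 3036 CPM and Krt17 at 5888 and 2412. Krt14 is part of the rule, so its course is in part set by the choice of cells.

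**Figure D4:**
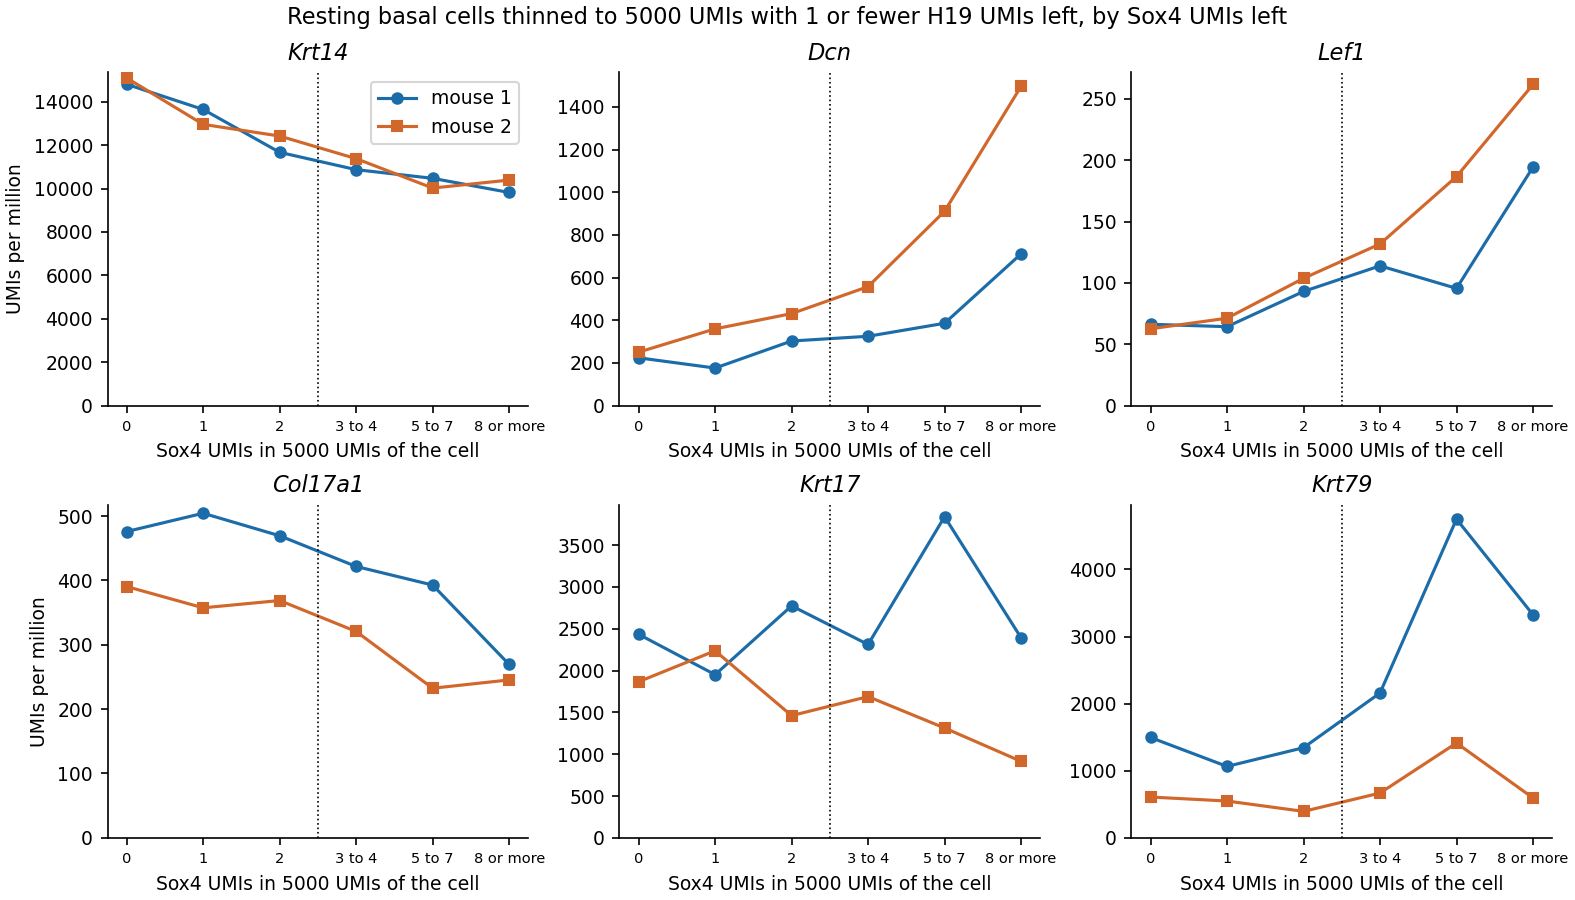
Levels in CPM of 6 genes in resting basal cells thinned to 5000 UMIs that then held 1 or fewer H19 UMIs, by the number of Sox4 UMIs left, 1 line per Chrm3 KO mouse. The dotted line marks 3 UMIs, the cut that the rule sets before thinning, Dcn and Lef1 are highest and Krt14 lowest in the last bins, and Krt79 and Krt17 have no common slope.

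A small number of cells carried most of the follicle signal. The 10% of members with the most Krt79 UMIs held 90.9% and 97.3% of all Krt79 UMIs of the members, against 71.5% and 63.6% for Krt17, 56.5% and 45.5% for Dcn, 31.7% and 27.2% for Sox4 and 28.6% and 24.0% for Krt14, each with its own top 10%. The median member had 0 Krt79 UMIs in both mice, while the highest held 1610 and 806. Krt17 was broader, with a median of 8 and 5 UMIs.

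Leiden clustering of the members alone, with the rule's genes left in, gave 8 clusters at a resolution of 0.6, described here by their leading genes and with no test. Cluster 1, 57 and 244 cells (10.8% and 34.6% of the mouse's members), was led by Cygb, Dcn, Ly6h, Kremen2, Fn1 and Lef1. It had Dcn at 1445 and 1335 CPM, Lef1 at 275 and 279.5, Sox4 at 1191 and 1179.6 and Krt17 at 405 and 445. Cluster 4, 147 and 71 cells (27.9% and 10.1%), was led by the immediate early and stress genes Atf3, Fosb, Fos, Gadd45b and Dusp1, with Fos at 1641 and 1372 CPM, Dcn at 434 and 460.3, Krt15 at 7039 and 5401 and Krt17 at 373 and 310.5. Clusters 1 and 4 were thus both low in Krt17, and the first held mostly cells of mouse 2 and the other mostly cells of mouse 1, so that each may reflect its library. Cluster 2, 102 and 162 cells, was led by the decoy receptor gene Il1r2, Pthlh, the chemokine gene Ccl27a, Tns4 and Stfa1, with Krt17 at 2504 and 2331 CPM, Apoe at 2838 and 2107 and Dcn at 83.3 and 91.6. Cluster 3, 99 and 144 cells (18.8% and 20.4%), was led by Cenpa, Cdca3, Cdc20, Vcan and Birc5, mitotic genes apart from Vcan, although the rule had held Mki67 and Top2a to 1 UMI. It had Cenpa at 96.5 and 56.9 CPM, Mki67 at 9.41 and 8.57 and Dcn at 427 and 716, so the word resting holds by the rule and not for every transcript of division.

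The remaining 4 clusters were small. Cluster 6, 52 and 21 cells (9.89% and 2.98%), was led by Krt79, Nupr1, Hspb1, Klk7 and Rarres1. It had Krt79 at 24846 and 19979.8 CPM, Krt17 at 12997 and 9894, Col17a1 at 48.1 and 18.1 and a median of 14 Sox4 UMIs in either mouse, in cells with median depths of 12910.5 and 17185 UMIs. Cluster 5, 41 and 35 cells, was led by the melanocyte genes Dct and Pmel with Vim, Ptgds and Npy, and held Apoe at 10360.4 and 10768 CPM, Krt79 at 7068 and 4171 and Mgst1 at 815 and 714. It contained 4 and 8 of the 6 and 12 members that Scrublet called doublets, and is left unnamed. Cluster 7, 20 and 23 cells, was led by 9 Lce1 genes and Crct1, genes of the cornified envelope, with Lor at 2357 and 4953 CPM. Cluster 8, 8 and 5 cells, was led by Tbx1, Sfrp1, Id4 and Bgn, with Sox9 at 590.5 and 595 CPM. At a resolution of 1 there were 16 clusters, and between 35.8% (cluster 3) and 100% (clusters 6 and 8) of a cluster's cells stayed together in a single finer one, so clusters 1 to 4 are less sharply drawn than 5 to 8.

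**Figure D5:**
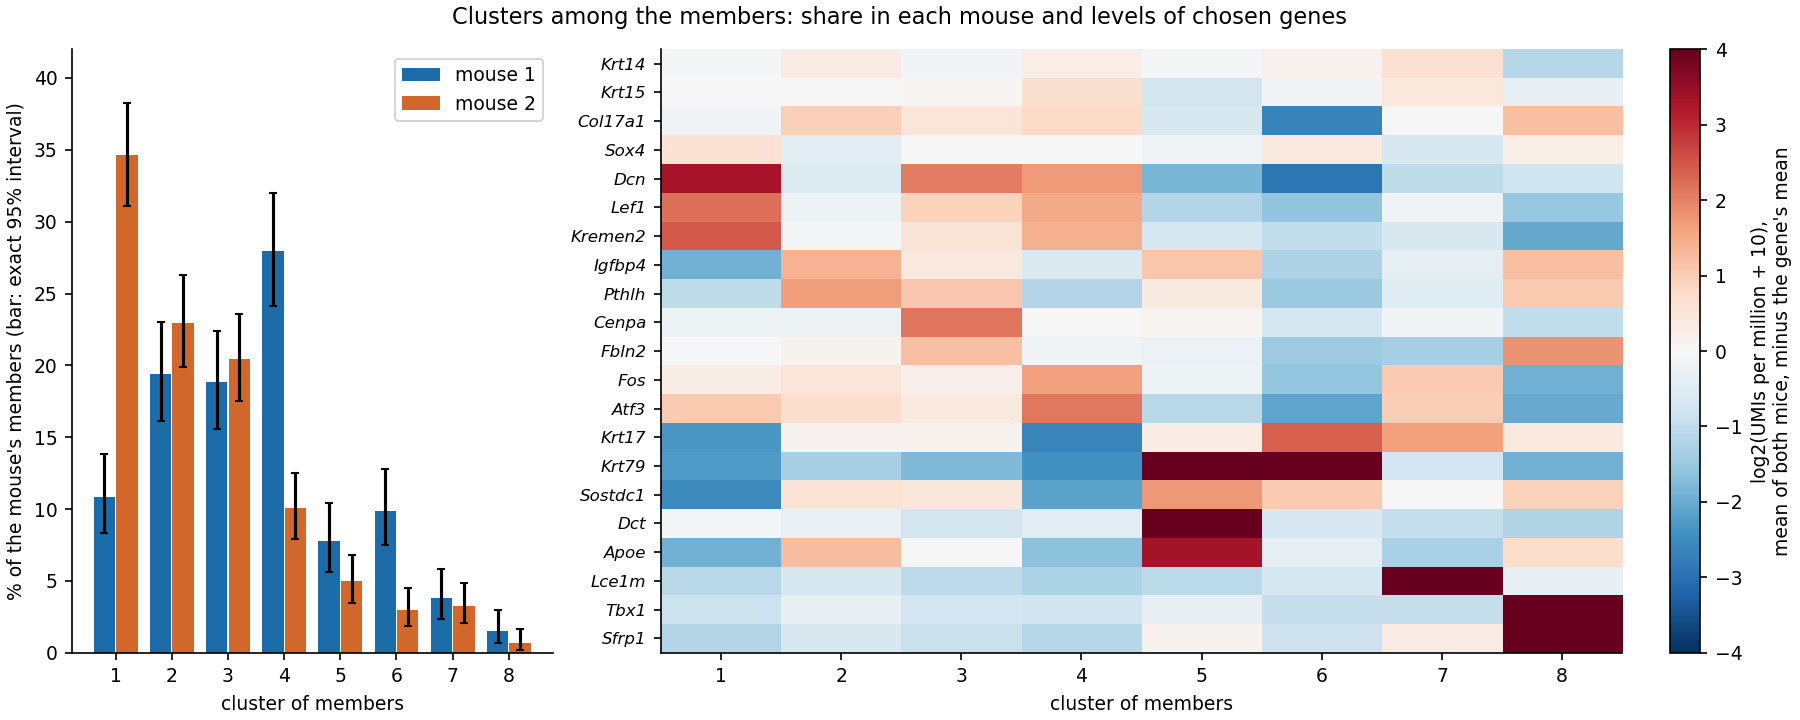
Left, share of each mouse's members in the 8 clusters, with exact 95% binomial intervals. Right, mean over both mice of log2(CPM + 10) for chosen genes, relative to each gene's mean over the clusters: Dcn and Lef1 peak in cluster 1, Krt79 and Krt17 in cluster 6, Dct and Apoe in cluster 5.

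Splitting the members by Krt17, a division made after the values had been seen and so not tested, drew these patterns together. Of the members, 178 and 249 (33.8% and 35.3%) held at most 2 Krt17 UMIs. Sox4 was close on both sides in mouse 1 and higher in the Krt17-low members of mouse 2, at 834 and 967 CPM in the Krt17-low members and 839.8 and 772 in the rest, while Krt14 was at 11058 and 10984 and 11383 and 11154. In the Krt17-low members Dcn was at 568 and 809 CPM and Lef1 at 182 and 212, against 230.0 and 533 and 57.7 and 105 in the rest. Krt15 was at 6793 and 4945 against 3988 and 3651 and Wnt4 at 869.9 and 858 against 416 and 536. Follicle genes ran the other way. Sostdc1 was at 99.5 and 75.3 CPM in the Krt17-low members and 490.2 and 359 in the rest, and Sox9 at 26.6 and 12.9 and 103 and 66.9. Igf2 stayed low on both sides, at 21.7 and 12.4 and 7.81 and 8.42 CPM.

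Outside the resting basal cells, Sox4 was at 723 and 578 CPM in basal cells with 2 or more Lhx2 UMIs, 620.0 and 566 in Ptch1-positive basal cells and 463 and 472 in dividing basal cells, and at 146 and 140.0 in transitional cells that carry both keratin pairs. The members lay above each of these classes, as the choice of cells by their Sox4 count makes likely. Dcn was at 466 and 649.5 CPM in Ptch1-positive, 451 and 675 in dividing and 308 and 455 in Lhx2-positive basal cells, around the members' 326 and 619, and at 72.5 and 62.8 in transitional cells. Krt79 was at 3048 and 1255 CPM in Lhx2-positive cells and 1782 and 298 in Ptch1-positive ones. Cells below both keratin limits, which the rule leaves out, had Sox4 at 741 and 633 CPM and Krt17 at 2385 and 2062, and were 3866 and 5513 in number. These classes were cut by thresholds and were not tested.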

How the data were processed

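Epidermal cells of 2 Chrm3 KO mice, 1 library each, were sequenced on the 10x platform. The deposited values are UMI counts per gene and barcode, which the authors made with Cell Ranger 3.0.2 on mm10 and left without normalization. The 10816 and 15867 barcodes still included some outside the study's limits on detected genes and mitochondrial transcripts. Of the 27998 gene identifiers, 27722 (99.0%) were found in GENCODE M21 (GRCm38), which gave the positions. No barcode was corrected for free RNA and doublets stayed in, with Scrublet run in scanpy 1.11.5 within each mouse at an expected rate of 8%.

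The members and the gene lists were chosen with earlier results of these data known. UMI counts were summed per mouse and class of resting basal cells, because a cell is no replicate. All 8 sums were fitted together with the quasi-likelihood model of edgeR 4.0.16 in R 4.3.3 after TMM scaling and filterByExpr, at 4 residual degrees of freedom, and p-values were adjusted by Benjamini-Hochberg over the 10759 genes outside the rule. The common coefficient of biological variation was 0.116. Gene SEs came from the log2 difference and the F statistic. The 4 sums of a mouse stem from 1 animal, and the mouse numbers therefore pair the classes. Differences between the mice correlated across 10782 genes with r from 0.117 to 0.228 for the 6 pairs of classes, and counts from the fit with the mouse as a block are given beside the lists whose calls it moves by over 1.5 times. Alternatives were DESeq2 1.42.0, its size factors, no filter on low counts, other cell filters and cuts, removal of doublets, leaving out each mouse and, added after the data had been seen, leaving out cells with 3 or more UMIs of Krt79, of Krt17, or of Krt79, the melanocyte list or the Lce1 genes.

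Named genes were every gene of 26 lists plus, among genes called, changed alike in both mice and at 50 CPM or more in the higher class, the 15 with the largest rise and fall against H19-high, Sox4-low cells and the 6 each way in the other 2 comparisons. A few of these genes are not reported here. Members were clustered on 2000 variable genes, 20 principal components and 15 neighbours with the Leiden algorithm. Thinning drew 5000 UMIs from each cell. The fit was tested on simulated data with known changes. Ribosomal protein genes were taken by symbol, without S6 kinases and pseudogenes. Shares have exact Clopper-Pearson and counts exact Poisson intervals. Plots used matplotlib 3.10.9 under Python 3.11.15.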

Additional observations from a re-analysis of the deposited data

How the results depend on the processing

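Against H19-high, Sox4-low cells, the count of called genes (1322) stayed within 1.5 times under DESeq2 size factors (1320), H19 held to 0 UMIs (1214), removal of Scrublet doublets (1329), Sox4 and H19 cuts set as rates (1355), a Sox4 cut of 5 (1397) and exclusion of cells with Krt79 (901) or with Krt79, melanocyte or Lce1 UMIs (910). It moved to 2592 with the replicate block, 2324 with the block and no Krt79-positive cells, 715 with DESeq2, 785 with Lhx2 and Ptch1 at 0, 523 with basal keratins at 1.6% or more, 825 in cells of 8000 to 16000 UMIs, 217 with under 5% mitochondrial UMIs, 2030 with no filter on low counts and 586 without Krt17-positive cells. Of its calls, 53.3% were higher in the members, against 48.2% with the block and 60.4% with DESeq2.

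Against Sox4-low, H19-low cells (19 calls) the counts under the same settings were 395, 284, 55, 9, 0, 0, 1, 409 and 47, in that order, 38 with rates, 81 with a Sox4 cut of 5, and 0 without cells with Krt79 or with Krt79, melanocyte or Lce1 UMIs. At an unadjusted p under 0.05 edgeR had 443, 722, 612 and 590 genes in the 4 settings with 0 calls (keratins, UMI range, Krt79, and Krt79, melanocyte or Lce1). Against Sox4-high, H19-high cells (288 calls) they were 1207 with the block, 841 with the block and no Krt79-positive cells, 110 with a Sox4 cut of 5, 84 with keratins at 1.6%, 173 in cells of 8000 to 16000 UMIs, 5 with under 5% mitochondrial UMIs, 952 with no filter, 26 without Krt17-positive cells, 112 without Krt79-positive cells and 124 without Krt79, melanocyte or Lce1 UMIs. With either mouse left out, 1 sum per class leaves no residual degrees of freedom, so no count of calls was given. The named genes' log2 differences then ran from -6.30 (Cd74) to 7.69 (Krt79) against H19-high, Sox4-low cells, from -6.88 (Elovl3) to 2.53 (Alcam) against Sox4-low, H19-low cells and from -3.70 (Igf2) to 5.31 (Rarres1) against Sox4-high, H19-high cells. The mitochondrial limit left 10 and 81 H19-high, Sox4-low cells.

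The mean share of members among resting basal cells (34.6%) was 28.1% with H19 at 0, 22.0% with Sox4 at 5 or more, 21.8% with keratins at 1.6%, 27.6% at 8000 to 16000 UMIs, 51.6% with under 5% mitochondrial UMIs and 23.0% without Krt17-positive cells, and 31.7% to 37.5% with either mouse alone.

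Among single genes against H19-high, Sox4-low cells, 13 of 2204 gene and setting pairs turned sign. Under the mitochondrial limit Dcn was at -0.29, Col4a1 at -0.0087, Fbln1 at -0.23 and Lef1 at -1.02, and Lef1 without replicate 2 at -0.027. Without Krt79-positive cells Tgfa was at -0.21 (-0.23 with the block, -0.32 without melanocyte and Lce1 UMIs as well) and Rarres1 at -0.057 (-0.067 with the block). Without Krt17-positive cells Rarres1 was at -0.21, Tubb2b at -0.098 and Slc1a3 at 0.041. Against Sox4-low, H19-low cells, without Krt79-positive cells, with the block on top, and without melanocyte and Lce1 UMIs as well, Krt17 was at -0.093, -0.075 and -0.064, Krt79 at -0.091, -0.085 and -0.035, Scd1 at 0.45, 0.46 and 0.48 and Mgll at 0.11, 0.11 and 0.044. There Krt17 was at -0.036 and Krt79 at -1.86 without Krt17-positive cells, Krt17 at -0.044 without replicate 1, Scd1 at 0.39 and Mgll at 0.13 with keratins at 1.6%, and Scd1 at 0.55 in cells of 8000 to 16000 UMIs. Against Sox4-high, H19-high cells, in the same 3 settings, Gjb2 was at -0.15, -0.12 and -0.12 and Sdr16c6 at -0.072, -0.0071 and -0.051, and without Krt17-positive cells Gjb2 was at -0.12, Tubb2b at -0.99, Dcn at 0.053 and Lef1 at 0.030. Values of Krt79 without Krt79-positive cells, and of Krt17 without Krt17-positive cells, are set in part by the exclusion itself. The causes were not tested. Of the pairs with a test in the 3 comparisons, 1624 of 1956, 111 of 186 and 601 of 887 kept their direction and side of the threshold, and with 1 mouse left out, which gives no test, 247 of 248, 23 of 24 and 112 of 112 kept their direction. The limits are the 2 mice, cuts that follow a cell's depth, and cells with Krt17 or Krt79 UMIs, which the rule keeps.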
